A study of Mus musculus with 12 samples.

Results

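A set of 10 lymphocyte marker genes was followed in 6 mouse liver tumors and in the non-tumoral liver of the same 6 mice. The genes were chosen by symbol as markers of T cells (Cd3e, Cd3g, Cd4 and Cd8a), of killing by T and natural killer (NK) cells (Gzmb, Prf1 and Nkg7), of regulatory T cells (Foxp3) and of B cells (Cd79a and Ms4a1), and they are 10 of the 24421 genes in the count files. The tumors arose in aged mice on a standard diet that carried an extra telomerase gene. In p21+/Tert mice (4 tumors and 4 livers) the promoter of Cdkn1a, the gene of the cell cycle inhibitor p21, drives Tert, the catalytic subunit of telomerase. In p21+/TertCi mice (2 tumors and 2 livers) the same promoter drives a catalytically inactive Tert. Each tumor and its liver come from a mouse with the transgene beside its own Tert, and no liver of a mouse without a transgene was analysed here. The study reports loss of the animal's own Tert locus by copy number in part of its tumors. The age of each mouse was not in the labels. The tumors of p21+/TertCi mice are named TCi-HCC981 and TCi-HCA984, and those of p21+/Tert mice T-HCA992, T-HCC941, T-HCC663 and T-HCC662, where HCC stands for hepatocellular carcinoma, HCA for adenoma, and the number for the mouse. In the histology of the study T-HCC663 is an adenoma. By the mutations found in them, T-HCC662 and T-HCC663 carry a Ctnnb1 mutation (β-catenin), T-HCC941 an Egfr mutation, TCi-HCC981 an Hras mutation, and T-HCA992 and TCi-HCA984 neither. These are the 3 driver classes, with 2 tumors each. Both Ctnnb1-mutated tumors came from p21+/Tert mice.

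A T cell recognizes its target through the T cell receptor, whose signal is passed into the cell by the CD3 chains. The coreceptor CD8 marks cytotoxic T cells, which, like NK cells, kill by releasing perforin and granzymes, and CD4 marks helper and regulatory T cells. The liver normally holds resident T, NK and B cells, and liver tumors differ in how many lymphocytes enter them.

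Library totals ran from 14571716 to 26170661 counts. The hepatocyte genes were abundant in all 12 libraries, with summed levels of 29787 to 54369 CPM (counts per 1000000, scaled by the library factors) in livers and 15693 to 94354 CPM in tumors, lowest in T-HCC663. At these depths the lymphocyte genes were sparse. Leaving out Foxp3, no member exceeded 296 counts in any library, and Prf1 had 3 or fewer counts in 6 of 12 libraries. A tissue library mixes the RNA of all its cells, so that fewer cells of a type and less RNA per cell cannot be told apart. One p21+/Tert liver has an animal number in its title that no tumor shares. It was taken as the own liver of T-HCC662 from the name of its count file, and results that change without that mouse are given as such.

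The sequences before the start sites of Cd3e, Cd8a and Prf1 are shown as examples. Cd8a and Prf1 were the markers called in the reported fit of the driver classes, and Cd3e, a CD3 gene, was not called there. The 250 bases upstream of each start were taken from RefSeq (GRCm38.p6, the assembly that mm10 names), 5′ to 3′ on the strand of the gene, and capitals mark matches to the core of ETS factor sites, GGAAG, on either strand. Of the 10 genes, 8 had a sequence in the table, and Cd4 and Ms4a1 did not.
Cd3e, chr9:45009612-45009861, minus strand: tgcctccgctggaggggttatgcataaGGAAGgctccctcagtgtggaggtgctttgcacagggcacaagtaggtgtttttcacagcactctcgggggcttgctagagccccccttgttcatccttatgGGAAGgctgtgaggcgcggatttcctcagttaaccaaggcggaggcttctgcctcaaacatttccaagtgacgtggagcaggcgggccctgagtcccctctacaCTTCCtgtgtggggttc
Cd8a, chr6:71373177-71373426, plus strand: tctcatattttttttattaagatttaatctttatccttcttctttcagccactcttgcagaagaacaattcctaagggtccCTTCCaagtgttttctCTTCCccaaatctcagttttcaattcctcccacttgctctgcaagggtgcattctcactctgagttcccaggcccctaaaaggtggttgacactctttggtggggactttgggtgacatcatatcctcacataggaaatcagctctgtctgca
Prf1, chr10:61297586-61297835, plus strand: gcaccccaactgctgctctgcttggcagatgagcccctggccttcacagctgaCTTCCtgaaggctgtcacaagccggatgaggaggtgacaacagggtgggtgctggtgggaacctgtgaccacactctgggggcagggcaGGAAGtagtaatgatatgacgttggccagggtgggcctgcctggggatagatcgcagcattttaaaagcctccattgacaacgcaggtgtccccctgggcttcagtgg
Cd3e held 3 matches, Cd8a 2 and Prf1 2, and Nkg7 held 3, Cd79a 1, and Foxp3 1 before each of its 2 listed starts. Cd3g and Gzmb had none, so that 6 of the 8 genes with a sequence held at least 1 match, where 64.1% of 32851 upstream windows of the same length did. A match this short is a description of the letters only.

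Cd3e and Cd3g encode the epsilon and gamma chains of CD3 and lie close to each other on chromosome 9 (GRCm38, 44998740 to 45009627 and 44969572 to 44980431, both on the minus strand). Cd3e had from 0 to 49 counts in the 6 livers (median 5.5) and from 9 to 67 in the 6 tumors (median 25). The groups overlapped, with 5 of 6 tumors above their own liver and the own liver of TCi-HCC981 above 4 of the tumors. The highest tumor was T-HCC941, with 67 counts of Cd3e against 0 in its own liver, which is at least 15.9-fold higher when the liver is set at a floor of 3 counts. The same liver did hold 17 counts of Cd3g. Cd3g had from 2 to 41 counts in livers (median 12.5) and from 6 to 63 in tumors (median 24), and was above the own liver in 4 of 6 tumors. T-HCC941 again stood highest, at 3.40 CPM against 1.29 CPM in its liver, a ratio of 2.64 with a 95% interval of 1.52 to 4.81 that covers counting error only. The lowest values of Cd3g were in the mouse of TCi-HCA984, with 2 counts in the liver and 6 in the tumor. The genes most like Cd3g over the 12 libraries, on the log2(CPM + 1) scale, were Lat, an adaptor of T cell receptor signaling, Cd3d, the delta chain of CD3, and Nkg7 (Pearson r 0.94, 0.93 and 0.92). Those most like Cd3e were Ms4a6b, Sh2d2a and Slc25a4 (Pearson r 0.96, 0.96 and 0.93). An antisense transcript, Gm48719, overlaps Cd3e, and without strand information its reads could not be told apart from those of Cd3e.

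Cd8a (chromosome 6, 71373427 to 71379173) encodes the alpha chain of the CD8 coreceptor, and it had the largest positive log2 fold change of the 8 markers tested across all tumors and livers. It had from 3 to 58 counts in livers (median 20.5) and from 13 to 258 in tumors (median 61). It was above the own liver in 5 of 6 tumors. The exception was T-HCC663, with 74 counts against 58 in its liver but a CPM ratio of 0.867 (95% interval 0.607 to 1.24), and without the scaling factors that ratio was 1.21. T-HCC941 reached 258 counts, or 13.9 CPM, 10.2 times its own liver (95% interval 6.33 to 17.5). The other 5 tumors lay between 0.738 and 5.03 CPM. Cd8b1, the gene of the CD8 beta chain, was the gene whose levels followed Cd8a most closely (Pearson r 0.93 over 12 libraries on the log2(CPM + 1) scale), followed by Tppp3 and Zfp28 (r 0.90 each).

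Cd4 (chromosome 6, 124864692 to 124888221, minus strand) encodes the coreceptor of helper and regulatory T cells and is also known from some macrophages and dendritic cells. It ran from 4 to 85 counts in livers (median 28.5) and from 7 to 296 in tumors (median 37), with 4 of 6 tumors above their liver. The 296 counts were in T-HCC663, whose liver had 14. That is 14.4 times the own liver (95% interval 8.43 to 26.6). The next tumor, T-HCC941, was at 2.92 CPM against 13.0 CPM in T-HCC663. T-HCC663 did not stand apart in the CD3 genes, where it had 33 counts of Cd3e and 24 of Cd3g, so that it held 8.97 counts of Cd4 for each count of Cd3e. Among the tumors the median of that ratio was 1.18, but the own liver of T-HCC662 had a like ratio of 8.83. T-HCC663 also had the highest summed level of the red blood cell genes of all 12 libraries, 1646 CPM against 199 to 882 CPM in the other tumors, and a summed level of the macrophage and Kupffer cell genes of 1181 CPM against 172 to 1302 CPM in the other tumors. The macrophage and Kupffer cell sum was highest of all 12 libraries in the own liver of TCi-HCC981, at 1717 CPM beside 1.43 CPM of Cd4. Whether red blood cells or macrophages have a part in the Cd4 reads was not tested. The genes most like Cd4 over the 12 libraries were Rltpr, Epor and Hvcn1 (Pearson r 0.92, 0.87 and 0.84).

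**Figure D1:**
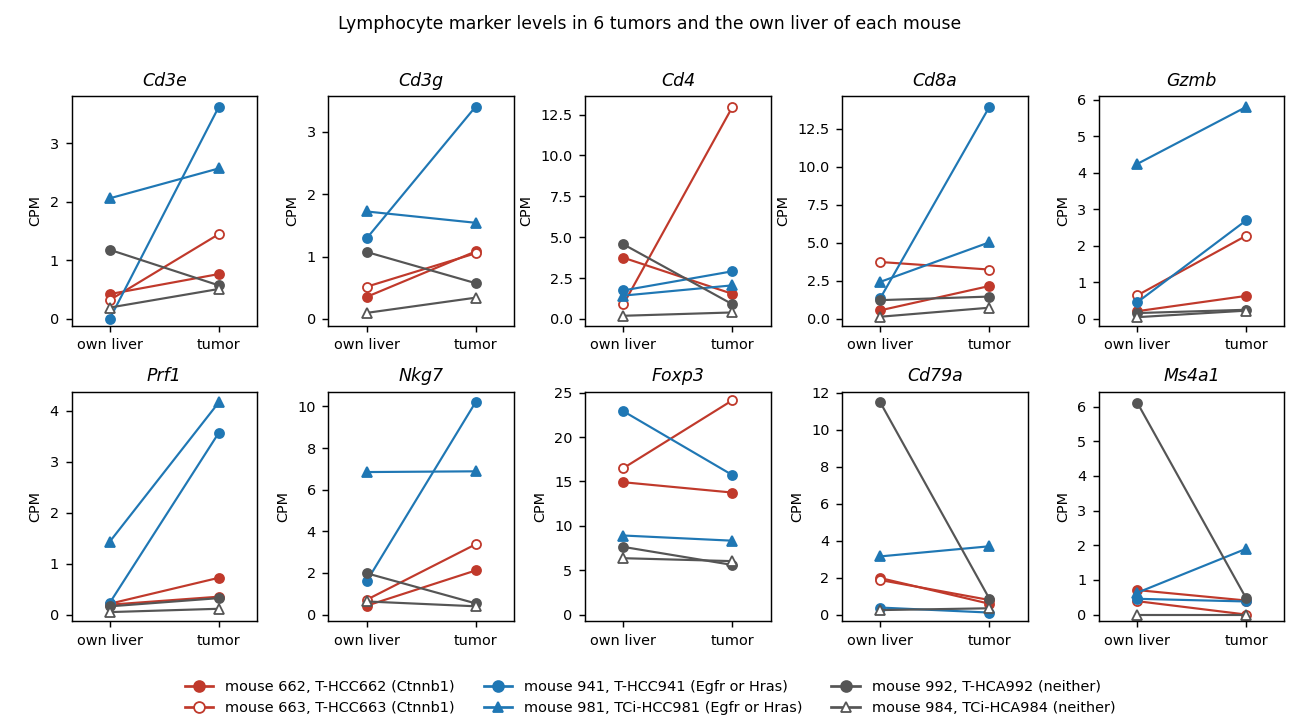
Levels of the 10 markers in CPM (linear axes that differ between panels) in the own liver and the tumor of each of 6 mice, joined by a line; colors give the driver class and triangles the p21+/TertCi mice. Gzmb and Prf1 were higher in the tumor in 6 of 6 mice, Cd4 was highest in T-HCC663 (13.0 CPM), Cd8a in T-HCC941 (13.9 CPM), and Cd79a and Ms4a1 in the own liver of T-HCA992.

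Gzmb and Prf1 had the most uniform direction of the markers, while Nkg7, the other cytotoxic gene, was above the own liver in 4 mice and below it in 2. Gzmb (chromosome 14, 56258838 to 56262260, minus strand) encodes granzyme B, a protease that starts cell death in the target. Prf1 (chromosome 10, 61297833 to 61304680) encodes perforin, the pore through which granzymes enter. Both were above the own liver in 6 of 6 mice, although by few counts in most. Gzmb had from 1 to 101 counts in livers (median 4.5) and from 4 to 113 in tumors (median 32). In 5 of the livers it was at 10 or fewer, and the own liver of TCi-HCC981 held 101, close to the 113 counts of its tumor. The interval of the ratio was above 1 in 3 tumors, T-HCC663 (3.53, interval 1.78 to 7.80), T-HCC941 (5.93, interval 2.54 to 16.9) and TCi-HCC981 (1.37, interval 1.04 to 1.81). Prf1 had 3 or fewer counts in 5 of 6 livers and 34 in the own liver of TCi-HCC981, against 2 to 81 in tumors (median 12.5). Only T-HCC941, with 66 counts against 3 (15.7 times, interval 5.13 to 77.9), and TCi-HCC981, with 81 against 34 (2.91 times, interval 1.93 to 4.49), had an interval above 1. The genes most like Gzmb over the 12 libraries were Lilr4b, Cd48 and Atp8a1 (Pearson r 0.97, 0.95 and 0.95).

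Nkg7 (chromosome 7, 43437073 to 43438249), a granule protein gene of NK cells and cytotoxic T cells, had the highest mean level per kilobase of exons among the members, 3.26 CPM per kilobase against 0.28 for Cd3e and 0.15 for Ms4a1. It had from 6 to 163 counts in livers (median 17) and from 7 to 189 in tumors (median 62). Nkg7 was 5.00-fold above the own liver in T-HCC662, 4.76-fold in T-HCC663 and 6.41-fold in T-HCC941, each with an interval above 1. In TCi-HCC981 the ratio was 1.01, and in T-HCA992 Nkg7 was 3.69-fold lower than in the own liver (95% interval 1.98 to 7.25). Nkg7 followed the CD3 genes closely over the 12 libraries, with a Pearson r of 0.92 with Cd3g and 0.89 with Cd3e. The genes most like it were Gimap7, Ccl5, a chemokine gene of activated T and NK cells, and Oas2, an interferon-induced gene (Pearson r 0.94 each).

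Foxp3 (chromosome X, 7573644 to 7595245) encodes the transcription factor that defines regulatory T cells, and its counts were unlike those of every other member. It had from 131 to 302 counts in livers (median 211.5) and from 106 to 551 in tumors (median 226.5), which was 3.24 to 51.2 times the Cd3e count in the 11 libraries with Cd3e. The own liver of T-HCC941 had 302 counts of Foxp3 and 0 of Cd3e. Il2ra and Ctla4, which regulatory T cells also express and which were chosen after their values were seen, had at most 24 and 16 counts in any library. Their list of regulatory T cell and checkpoint genes had means from 0.27 CPM (Ctla4) to 4.82 CPM (Tox). The mean was 0.52 CPM for Il2ra, 4.42 CPM for Lag3 and 12.6 CPM for Foxp3. On the opposite strand, the gene Ccdc22, which takes part in endosomal sorting in most cells, runs into the 3′ end of Foxp3. The genes share 1437 bases (chromosome X, 7593809 to 7595245), and 12.9% of the exon bases of Foxp3 lie in exons of Ccdc22. Ppp1r3f and Gm36995 on the opposite strand and Flicr on the same strand also overlap Foxp3, and they were not compared with it here. Foxp3 counts followed those of Ccdc22 with a Pearson r of 0.95 and those of Cd3e with an r of -0.01 (12 libraries, log2(CPM + 1)). The genes most like Foxp3 were closer to it than Ccdc22 and do not lie on chromosome X, namely Vamp8, Ppp4c and Rnaseh2a (Pearson r 0.97, 0.96 and 0.96). For each count of Ccdc22 there were 0.360 to 0.648 counts of Foxp3 in livers (median 0.524) and 0.337 to 0.701 in tumors (median 0.549), and an exact permutation test of the difference between the means gave a two-sided p of 0.729. The library protocol in the labels does not mark strand, so that reads of Foxp3 and Ccdc22 in the shared stretch cannot be told apart, and the Foxp3 values are not read here as regulatory T cells.

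**Figure D2:**
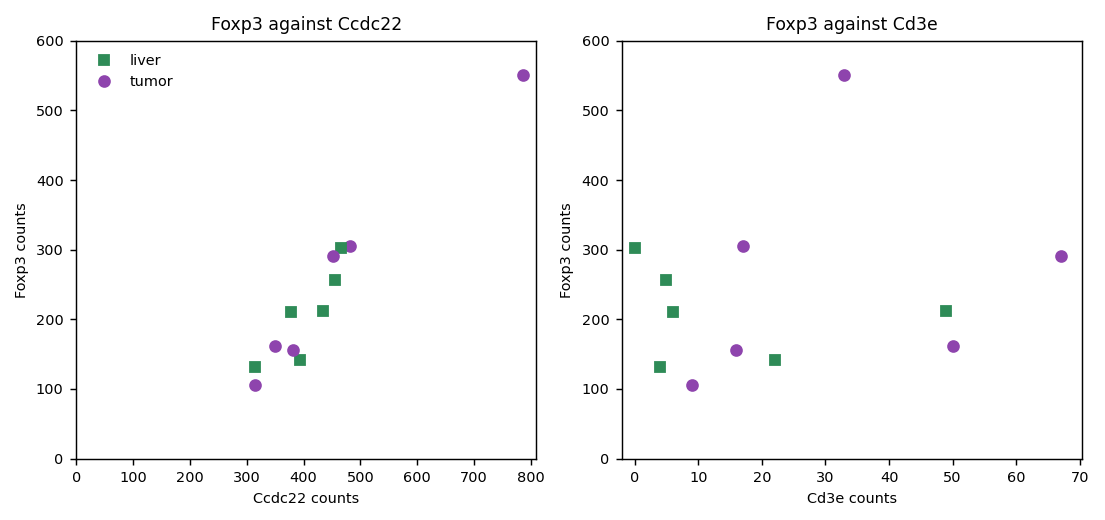
Raw Foxp3 counts (vertical axes) against raw counts of Ccdc22, an overlapping gene on the opposite strand (left), and of the T cell gene Cd3e (right), with 1 point for each of 6 livers (squares) and 6 tumors (circles). Foxp3 followed Ccdc22 over the 12 libraries, up to 551 counts beside 786 of Ccdc22 in T-HCC663, and did not follow Cd3e.

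The B cell genes were lower in the tumor than in the own liver in 4 mice each. Cd79a (chromosome 7, 24897381 to 24902197) encodes a signaling chain of the B cell receptor, and Ms4a1 (chromosome 19, 11249675 to 11266241, minus strand) encodes the surface protein CD20. Cd79a had from 5 to 214 counts in livers (median 28.5) and from 2 to 72 in tumors (median 15.5). Ms4a1 had from 0 to 114 counts in livers and from 0 to 37 in tumors (median 8 in both), and was 0 in TCi-HCA984 and its own liver and in T-HCC663. The own liver of T-HCA992 carried much of this contrast, with 214 counts of Cd79a and 114 of Ms4a1. The tumor itself had 24 and 13 counts, 13.4-fold lower for Cd79a (95% interval 8.74 to 21.3) and 13.1-fold lower for Ms4a1 (95% interval 7.38 to 25.4). Cd79a was also lower in T-HCC662 (3.38-fold, interval 1.69 to 7.10) and T-HCC663 (2.37-fold, interval 1.27 to 4.53). In TCi-HCC981 the order was reversed for Ms4a1, with 37 counts against 15 in the liver (3.02-fold higher, interval 1.62 to 5.92). The genes most like Cd79a were the B cell genes Pou2af1, Fcer2a and Spib (Pearson r 0.96 each), and Cd79a and Ms4a1 had an r of 0.89. Ms4a1 lies within a transcript on the opposite strand, 4930526L06Rik.

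Mouse by mouse, different markers stood apart in each tumor. T-HCC941 had 7 of 10 markers above its own liver by the 95% counting interval, namely all T cell and cytotoxic markers, and only Foxp3 below it. T-HCC663 had 5 above (Cd3e, Cd4, Gzmb, Nkg7 and Foxp3) and both B cell markers below. T-HCC662 had Cd3g, Cd8a and Nkg7 above and Cd4 and Cd79a below. TCi-HCC981 had Cd8a, Gzmb, Prf1 and Ms4a1 above and none below. TCi-HCA984, from the mouse with the fewest lymphocyte counts, had only Cd8a above (13 counts against 3). T-HCA992 had none above and 6 below, namely Cd3e, Cd4, Nkg7, Foxp3, Cd79a and Ms4a1. These intervals compare single libraries of 1 tumor and 1 liver and hold no spread between animals. The share of all genes whose interval leaves out 1 in the same pair is not given here. The numbers of markers above or below therefore have no background to be set against.

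**Figure D3:**
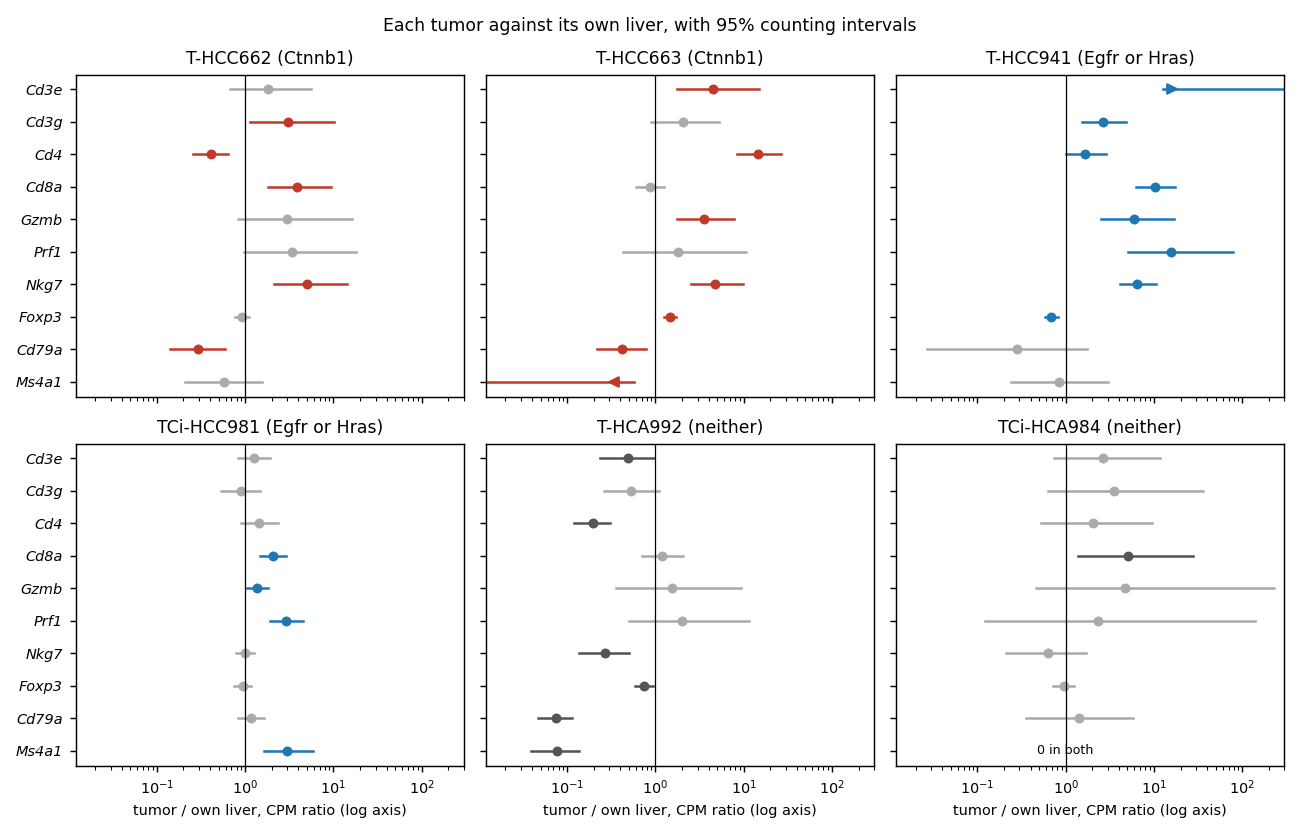
Ratio of each tumor to its own liver for the 10 markers (log axis), with 95% counting intervals and the driver class in each title; colored intervals leave out 1, gray intervals hold it, and triangles are bounds against a library with 0 counts. T-HCC941 had 7 markers above 1 and T-HCA992 had 6 below 1, with no share of all genes given beside these numbers.

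RNA of leukocytes as a whole was followed through Ptprc, the gene of the pan-leukocyte protein CD45. Ptprc was above the own liver in 5 of 6 tumors, by 1.39-fold in TCi-HCC981 to 4.13-fold in T-HCC941, and 1.80-fold lower in T-HCA992. Of the 57 ratios of a marker in a tumor to its own liver that could be formed, 37 were above 1 on the CPM scale and 22 when each marker was counted per Ptprc count. In T-HCC941 Cd8a stayed above the liver per Ptprc count (2.47-fold) and so did Prf1 (3.80-fold), while Cd3g (0.639) and Cd4 (0.405) did not. In T-HCA992 Cd79a stayed lower, with a ratio per Ptprc count of 0.135. Cd4 in T-HCC663 was 5.11-fold above its liver per Ptprc count.

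Across all 6 tumors and 6 livers, 8 of the 10 markers passed the filter on low counts, and none was called by edgeR's quasi-likelihood test at an adjusted p under 0.05, where 10.8% of 13822 genes were. None of the 8 had an unadjusted p under 0.05, and DESeq2 called none either. A positive log2 fold change was found for 6 of the 8, and their median was 0.83 against 0.02 over all genes tested. Cd8a had the smallest p, with a log2 fold change of 1.48 (SE 0.76, 95% interval -0.15 to 3.11, adjusted p = 0.238). Cd79a had the most negative, -1.58 (SE 0.91, 95% interval -3.55 to 0.39, adjusted p = 0.296). The interval of Cd3e ran from -0.55 to 2.82, which holds both a several-fold rise and a small fall. For Prf1 and Ms4a1, which failed the filter, the exact permutation test of mean CPM gave a two-sided p of 0.195 and 0.537 (smallest possible 0.00216). That test did not use the pairing by mouse. With the mouse as a block in the fit, 1 marker was called, Gzmb (log2 fold change 1.45, adjusted p = 0.043 in edgeR). The share of all genes called in the blocked fit is not given here. The sign of Cd4 turned without T-HCC663 (log2 fold change -0.44), and the log2 fold change of Cd79a was -0.52 without the own liver of T-HCA992. Without T-HCC941 the log2 fold change of Cd8a was 0.68 and that of Cd3e 0.71. Of the genes of other cell types, Pecam1 (endothelial, log2 fold change 1.59) and all 4 proliferation genes, Mki67 (3.09) and Cdk1 (2.83) among them, were called higher in the tumors. The other endothelial genes were not called, with Stab2 (-0.22) and Clec4g (-0.98) negative and Cdh5, Kdr and Lyve1 positive.

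The driver classes were compared next, in a fit of 15182 genes that tested all 10 markers. Prf1 and Ms4a1, which had failed the filter on low counts before, passed that of this fit, which is looser because its groups are smaller. In the Egfr- or Hras-mutated tumors 2 of the 10 were higher than in the 6 livers, where 9.95% of all genes were called higher and 18% in either direction. Prf1 had 66 and 81 counts in these tumors, above all 6 livers (log2 fold change 3.28, SE 0.85, adjusted p = 0.0213 in edgeR). Cd8a had 258 and 98 counts, again above all livers (log2 fold change 2.58, SE 0.75, adjusted p = 0.0352 in edgeR). Nkg7 (log2 fold change 2.05, adjusted p = 0.0912) and Cd3e (log2 fold change 2.10, adjusted p = 0.13) had an unadjusted p under 0.05 and did not pass edgeR's adjusted threshold. In CPM, Nkg7 and Cd3e were also above all 6 livers in these tumors. Nkg7 was so only narrowly, at 6.88 CPM in TCi-HCC981 against 6.85 CPM in its own liver. The share of all genes that lie above all livers in this way is not given here. The calls of Prf1 and Cd8a depended on single libraries. Neither was made without T-HCC941, without TCi-HCC981, without both libraries of the mouse of T-HCC662 or in the fit blocked by mouse (adjusted p = 0.0940 for Prf1 and 0.136 for Cd8a in edgeR). Prf1 alone was called without the own liver of T-HCC662, of T-HCC941 or of T-HCA992. Without the own liver of TCi-HCC981, which was rich in these transcripts, 5 markers were called, namely Cd3e, Cd8a, Gzmb, Prf1 and Nkg7. For that fit the share of all genes called is not given here. Genes of other cells moved in the same comparison. The dendritic cell gene Itgax (log2 fold change 2.40, adjusted p = 0.0382 in edgeR) and the endothelial genes Pecam1 (2.00, adjusted p = 0.00335) and Cdh5 (1.51, adjusted p = 0.0492) were called higher. Of the other endothelial genes Stab2 (-0.31) and Clec4g (-0.46) were negative and Kdr and Lyve1 positive, and none was called. All 6 pan-leukocyte genes had a positive log2 fold change (median 1.30, with 1.57 for Ptprc) and none was called. Their part in the Prf1 and Cd8a values was not tested.

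In the Ctnnb1-mutated tumors none of the 10 markers was called by edgeR or DESeq2 against the livers (8.23% of genes called by edgeR) or against the other 4 tumors (12.6%). Against the livers none had an unadjusted p under 0.05. Against the other tumors 2 had, Cd4 (log2 fold change 2.50, SE 0.96, adjusted p = 0.106 in edgeR) and Foxp3 (1.18, SE 0.48, adjusted p = 0.122). Without T-HCC663 the log2 fold change of Cd4 was 0.26. The difference in Cd3e was -0.23 on the log2 scale with a 95% interval of -2.60 to 2.14, and that in Cd8a was -0.27 with an interval of -2.22 to 1.69. Differences of 4-fold in either direction lie inside the interval of Cd3e, so that a change of that size was not detectable with 2 tumors against 4. In counts, Cd3e was at 17 and 33 in the Ctnnb1-mutated tumors and at 9 to 67 in the others, and Cd8a at 48 and 74 against 13 to 258. The groups overlapped in both.

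In the tumors with neither driver all 10 markers had a negative log2 fold change against the livers, and edgeR and DESeq2 called none (8.07% of genes called by edgeR). Foxp3 alone had an unadjusted p under 0.05 (log2 fold change -1.14, adjusted p = 0.184). Nkg7 had 15 and 7 counts in these tumors against 6 to 163 in the livers (log2 fold change -2.11, SE 1.02, adjusted p = 0.225 in edgeR), and its log2 fold change was -1.17 without the own liver of TCi-HCC981. Pecam1 and Sox9 and the stellate cell and fibroblast genes Col1a1 and Acta2 were called higher here. The other genes of their lists were not called and differed in sign. Stab2 and Clec4g (endothelial), Dcn and Lrat (stellate cell and fibroblast) and Krt19 and Krt7 (bile duct, the list of Sox9) were negative. Cdh5, Kdr and Lyve1, Col3a1 and Reln, and Epcam of the same lists were positive. The comparison sets both tumors against all livers, and TCi-HCA984 was above its own liver in 7 of the 9 markers with a ratio.

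**Figure D4:**
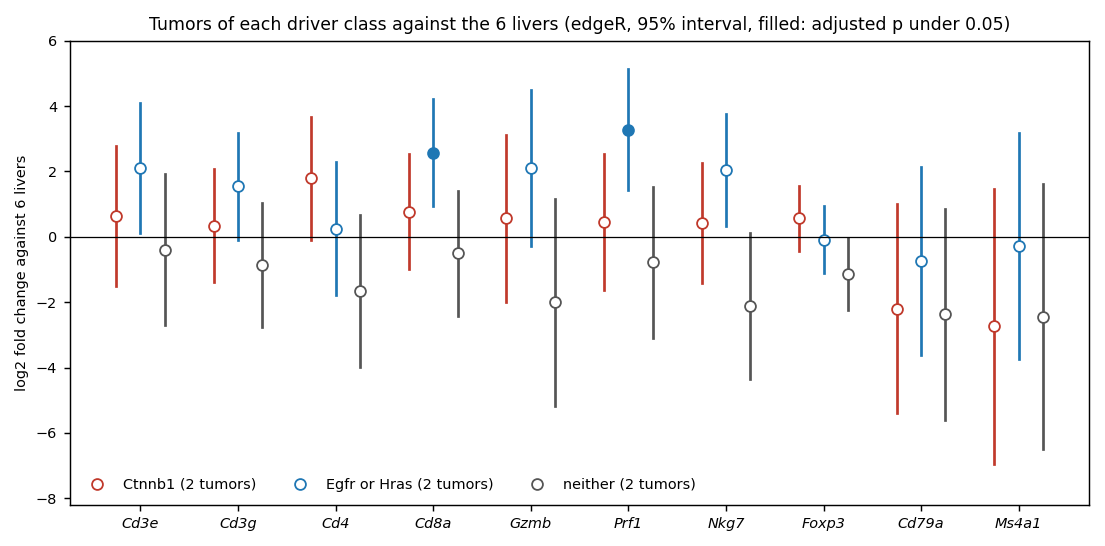
Log2 fold change of the 10 markers in the 2 tumors of each driver class against the 6 livers (edgeR, bars are 95% intervals, filled points have an adjusted p under 0.05). Cd8a and Prf1 in the Egfr or Hras class are the filled points, and the 3 classes share the same 6 livers.

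By genotype, none of the 10 markers was called in p21+/Tert tumors against p21+/Tert livers (6.47% of genes called by edgeR) or in p21+/TertCi tumors against p21+/TertCi livers (0.00659%). DESeq2 called none in either. In p21+/Tert mice Cd79a was lower with an unadjusted p under 0.05 (log2 fold change -2.73, SE 1.14, adjusted p = 0.184 in edgeR), and with the mouse as a block it was called (log2 fold change -2.18, adjusted p = 0.0498). Without the own liver of T-HCA992 the log2 fold change of Cd79a there, with no block, was -1.25 (adjusted p = 0.513 in edgeR). No marker had an unadjusted p under 0.05 in p21+/TertCi mice. The difference between the genotypes in tumor against liver was called for 0 markers by edgeR and by DESeq2, with no unadjusted p under 0.05, and 0% of all genes were called by edgeR. With 2 p21+/TertCi tumors the intervals were wide, for Cd8a from -4.12 to 3.26 on the log2 scale.

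The other genes of the same cell types, taken from lists that do not hold the 10 markers, were counted in the same fits. Of 15 further T cell genes tested across all tumors and livers none was called, with 13 of positive sign and a median log2 fold change of 0.57. None of 6 further NK and cytotoxic genes was called (5 positive, median 0.59), and none of 10 further B and plasma cell genes (9 negative, median -1.15). In the Egfr- or Hras-mutated tumors all 18 further NK and cytotoxic genes tested had a positive sign (median 1.24) and none was called, and 16 of 18 T cell genes had (median 1.42), again with none called. The checkpoint gene Havcr2, also expressed by macrophages, was called higher. The summed level of the NK and cytotoxic genes ran from 3.30 CPM in the own liver of TCi-HCA984 to 49.7 CPM in that of TCi-HCC981, so that livers alone spanned nearly the range of the tumors (5.11 to 52.1 CPM). The macrophage and Kupffer cell genes were also highest in the own liver of TCi-HCC981, at 1717 CPM. Their part in the cytotoxic values was not tested.

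A few genes listed as T cell genes did move in the Ctnnb1-mutated tumors, where none of the 10 markers was called. Against the other tumors, 1 of 18 further T cell genes tested was called higher (8 positive, 10 negative, median log2 fold change -0.17), 1 of 10 regulatory T cell and checkpoint genes (5 positive, 5 negative, median -0.05), and both genes that Wnt signaling can also drive, and none of these was called lower. Of the genes of other cells, Pecam1, Kdr, Sox9, Alb, Cps1 and Serpina1c were called lower and Alas2 higher. Themis, a thymocyte signaling gene, had 1161 counts in T-HCC662 and 389 in T-HCC663, against 12 to 125 in the other tumors and 18 to 395 in livers (log2 fold change 4.07 against other tumors, SE 1.13, adjusted p = 0.038 in edgeR). T-HCC662 held 17 counts of Cd3e beside those 1161 of Themis. Lef1 and Tcf7, transcription factors of T cells and of Wnt signaling, had 169 and 131 counts and 454 and 488 counts in the same tumors (log2 fold changes 6.04 and 2.05 against other tumors). Tox, a transcription factor gene of exhausted T cells, was also called higher (log2 fold change 2.27). Over the 12 libraries Themis and Cd3e had a Pearson r of -0.20 on the log2(CPM + 1) scale.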

How the data were processed

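Poly-A RNA was sequenced from 6 tumors and from 6 non-tumoral livers. The authors aligned reads with Subread to a customized mm10 genome that includes mCherry and made the deposited raw counts per gene with featureCounts 1.6.4. The strand setting, the treatment of overlapping genes and the sequencing run of each library were not given in the sources used here.

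Counts were tested with edgeR 4.0.16 (R 4.3.3; TMM factors, filterByExpr, quasi-likelihood F test, Benjamini-Hochberg adjustment over all genes tested, threshold 0.05), without and with the mouse as a block. Tumors and livers were fitted as 2 groups, as livers and 3 driver classes, and as 4 groups of genotype and tissue. DESeq2 1.42.0 was an alternative. CPM used TMM factors. The script was tested on simulated data. Tumor-to-liver ratios have exact 95% binomial intervals of the counts, which cover counting error only, and a floor of 3 counts stands for a count of 0. P-values of the fits without the block and of the exact permutation tests treat the tumor and the liver of a mouse as independent libraries. They measure the spread between the libraries of a group, and each group is small.

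A liver and a tumor of the same mouse are paired by design. Over 13822 genes the correlation of a tumor's deviation with that of its own liver was 0.0861 to 0.459, against a median of -0.0752 with other livers, and 5 of the 6 tumors correlated best with their own liver, T-HCC663 being the exception.

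The rule named all 10 markers, genes of the other lists that were called (or the most abundant where none was), and the 3 genes most correlated with each marker tested. Uncalled genes of the other lists are given as counts or left out, and not all called ones are named. Ptprc, Il2ra, Ctla4 and Ccdc22 were chosen after their values were seen. Markers, lists and driver classes were chosen with earlier results of these data known. T cell receptor and immunoglobulin constant genes (Trac, Trbc1, Trbc2, Ighm, Ighd and Igkc) were not analysed here.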

Additional observations from a re-analysis of the deposited data

Results flagged for a closer look

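Each marker was checked for a single library far from the others of its group, in 6 tumors, 6 livers, 4 p21+/Tert tumors and 4 p21+/Tert livers. Of 40 such groups, 14 had one by Dixon's 95% limit. That limit is made for normally distributed values. Low, skewed counts are not such values, so the 14 cannot be set against a rate given by chance. The groups overlap, so that a library can count more than once.

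Among the tumors, T-HCC663 stood apart in Cd4 at 13.0 CPM, against 0.398 to 2.92 CPM in the other 5 tumors and 0.896 to 2.92 CPM in the other p21+/Tert tumors. T-HCC941 stood apart in Cd8a at 13.9 CPM, against 0.738 to 5.03 CPM in the other tumors and 1.47 to 3.24 CPM in the other p21+/Tert tumors, and in Prf1 at 3.56 CPM among p21+/Tert tumors, against 0.322 to 0.721 CPM. TCi-HCC981 stood apart in both B cell markers, with 3.70 CPM of Cd79a (0.108 to 0.860 CPM in the other tumors) and 1.90 CPM of Ms4a1 (0 to 0.466 CPM).

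Among the livers, that of TCi-HCC981's mouse stood apart in the 3 cytotoxic genes, with 4.24 CPM of Gzmb (0.0485 to 0.645 CPM in the other livers), 1.43 CPM of Prf1 (0.0485 to 0.228 CPM) and 6.85 CPM of Nkg7 (0.424 to 1.99 CPM). That of T-HCA992's mouse stood apart in the B cell genes, with 11.5 CPM of Cd79a (0.242 to 3.15 CPM in the other livers, 0.379 to 1.98 CPM in the other p21+/Tert livers) and 6.12 CPM of Ms4a1 (0 to 0.706 CPM in the other livers, 0.387 to 0.706 CPM in the other p21+/Tert livers). No cause was tested for any of these libraries.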

How the results depend on the processing

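For the Egfr or Hras class, 2 markers were called in the reported fit and with DESeq2, RLE factors or no filter, 1 (Prf1) with only the libraries compared, 0 with the mouse as a block, 0 without the mouse of T-HCC662, and 0 to 5 with single libraries left out. With the block, 1 marker was called in tumors against livers (Gzmb) and 1 in p21+/Tert mice (Cd79a). The block changed no other call of a marker. The share of all genes called in these alternative fits is not set beside the counts of markers. The other 5 comparisons called 0 markers under every alternative run, and no scaling moved the median of all genes by over 0.1 log2. Counted per Ptprc count, 22 of 57 ratios to the own liver were above 1, against 37, and 39 without TMM factors. Signs turned only for values that were not called. Cd3e in Ctnnb1-mutated against other tumors was 0.34 with the block, 0.15 without the mouse of T-HCC662, and -0.76 to 0.15 with single libraries left out. Cd8a there ran from -0.59 to 0.19 with single libraries left out. In tumors against livers Cd4 ran from -0.44 to 1.12 and Foxp3 from -0.40 to 0.18. The ratio of Foxp3 to Ccdc22, an alternative chosen after seeing the data, gave 0.072 for Foxp3. The causes were not tested. Counts under 10 in many libraries limit what could be detected.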
